A study of Mus musculus with 2 samples.

Results

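The genes of cholesterol and fatty acid synthesis were compared between regulatory T cells (Tregs) of wild-type (WT) mice and of DNR mice, whose TGF-beta receptor II is dominant negative. The 35 genes were chosen by their role in sterol and lipid metabolism: 8 of the mevalonate pathway, 11 that lead from squalene synthesis to cholesterol, 6 of sterol sensing and transport, 8 of fatty acid synthesis and desaturation, and 2 sterol exporters. Of these, 34 had probe sets that the platform annotation assigns to exactly 1 gene, 81 probe sets in all, out of 18193 genes and 34945 such probe sets on the array. Acat2, which encodes an acetoacetyl-CoA thiolase, lacked a probe set of its own in the annotation and was not analysed here.

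Both groups were splenic CD4+Foxp3+ Tregs of animals aged 10 weeks on the C57BL/6 background, purified by flow sorting. The groups differed, per the genotype labels, in the DNR genotype, although the sorting protocol given for the WT sample also names DNR mice. The promoter that drives the dominant negative receptor and the number of mice behind each RNA are not stated in the labels used here. There was 1 Affymetrix array per genotype, so each difference below is between 2 RNA samples, without a replicate check, a test or a p-value.

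Cells make cholesterol from acetyl-CoA through mevalonate, isoprenoids and squalene. When sterols in the endoplasmic reticulum run low, SCAP carries the SREBP transcription factors (genes Srebf1 and Srebf2) to the Golgi, where they are cleaved and released to activate sterol and fatty acid genes; INSIG proteins hold SCAP back when sterols are plentiful. When sterols are in excess, the nuclear receptor LXR instead induces the exporters ABCA1 and ABCG1. In T cells, activation and division are known to raise this synthesis, and in Tregs the mevalonate pathway is known to be needed for suppressive function.

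SREBPs bind sterol regulatory elements, often beside sites of the factor NF-Y, in the promoters of their targets. The 250 bases before each RefSeq transcription start (build GRCm38.p6) were available for 27 of the 35 genes, in 35 windows. The letters TCACNCCAC, a form of the sterol regulatory element, were searched on both strands and occurred in 1 window, 2.86% of these and 1.05% of all 32851 windows of the same length. That window belonged to Hmgcs1, 137 bases before the start. The NF-Y letters CCAAT, on either strand, occurred in 21 of the 35 windows (60%), against 33.8% of all windows. A match to either motif is not a match to the other, and the Hmgcs1 window also holds 3 NF-Y matches. The windows of Hmgcs1, Mvk and Scap are printed because they hold the sterol element, the most NF-Y letters (5) and neither motif, and because Scap had the lowest ratio among the 32 genes that passed the floor on each array. They lie at chr13:119690101-119690350, chr5:114444019-114444268 and chr9:110333038-110333287, all on the plus strand, and capitals mark the motif letters. Scap has a second, overlapping window, also without a match.
Hmgcs1: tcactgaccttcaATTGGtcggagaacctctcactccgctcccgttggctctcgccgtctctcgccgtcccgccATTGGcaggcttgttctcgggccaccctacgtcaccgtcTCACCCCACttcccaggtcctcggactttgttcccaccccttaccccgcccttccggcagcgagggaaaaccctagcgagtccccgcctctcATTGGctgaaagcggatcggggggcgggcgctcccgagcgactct
Mvk: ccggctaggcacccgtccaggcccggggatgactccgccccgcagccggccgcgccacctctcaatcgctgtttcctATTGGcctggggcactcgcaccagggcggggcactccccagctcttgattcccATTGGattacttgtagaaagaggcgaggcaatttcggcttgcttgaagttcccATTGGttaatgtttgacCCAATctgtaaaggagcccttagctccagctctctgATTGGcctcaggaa
Scap: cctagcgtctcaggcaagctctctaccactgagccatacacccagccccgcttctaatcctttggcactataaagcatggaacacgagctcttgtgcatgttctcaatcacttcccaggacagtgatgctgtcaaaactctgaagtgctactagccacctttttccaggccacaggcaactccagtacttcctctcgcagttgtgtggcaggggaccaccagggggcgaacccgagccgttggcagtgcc
A match is a description of letters, not a binding site, and a missing match says nothing about a factor.

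No gene of this group had a ratio of 2-fold or more between the arrays in the setting used. Signals are MAS5 intensities in arbitrary units, and values below a floor of 110.9, the higher of the arrays' medians, were set to it before the log2 ratio of DNR over WT was taken. The probe set with the highest mean over both arrays stands for each gene. Of the 34 genes, 33 were above the floor on at least 1 array (measured), 32 of them on both. Fads2 was above it on the WT array alone, so its ratio is a bound that cannot place it under 2-fold. Scd1 was above it on neither array and has no ratio. At least 2-fold higher on the DNR array were 0 of 33, where 4.0% of all 11927 measured genes were, and at least 2-fold lower were 0 of 33, against 2.93% of all. For 33 genes, counts of 0 are near those shares. At 1.5-fold, 0 were higher (12.8% of all measured genes) and 3 lower (9.85%): Scap, Abca1 and Insig2.

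The median log2 ratio of the 33 was -0.04, where that of all measured genes was 0.01. In direction, 14 were higher and 19 lower on the DNR array, that is 57.6% lower against 48.6% of all measured genes. Of the 32 genes that passed the floor on each array, 19 (59.4%) differed by less than 1.2-fold, against 48.4% of 9281 such genes of the whole array. The interquartile range of these 32 ratios ran from -0.17 to 0.16, and that of the 9281 from -0.30 to 0.25. As an error, these data offer how far probe sets of the same gene disagree: the robust SD of a probe set's log2 ratio was 0.36 over 3968 genes that had 2 or more usable probe sets (past the floor on each array), and also 0.36 over the 15 such genes of this group. It holds no variation between mice, sorts or hybridisations.

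**Figure D1:**
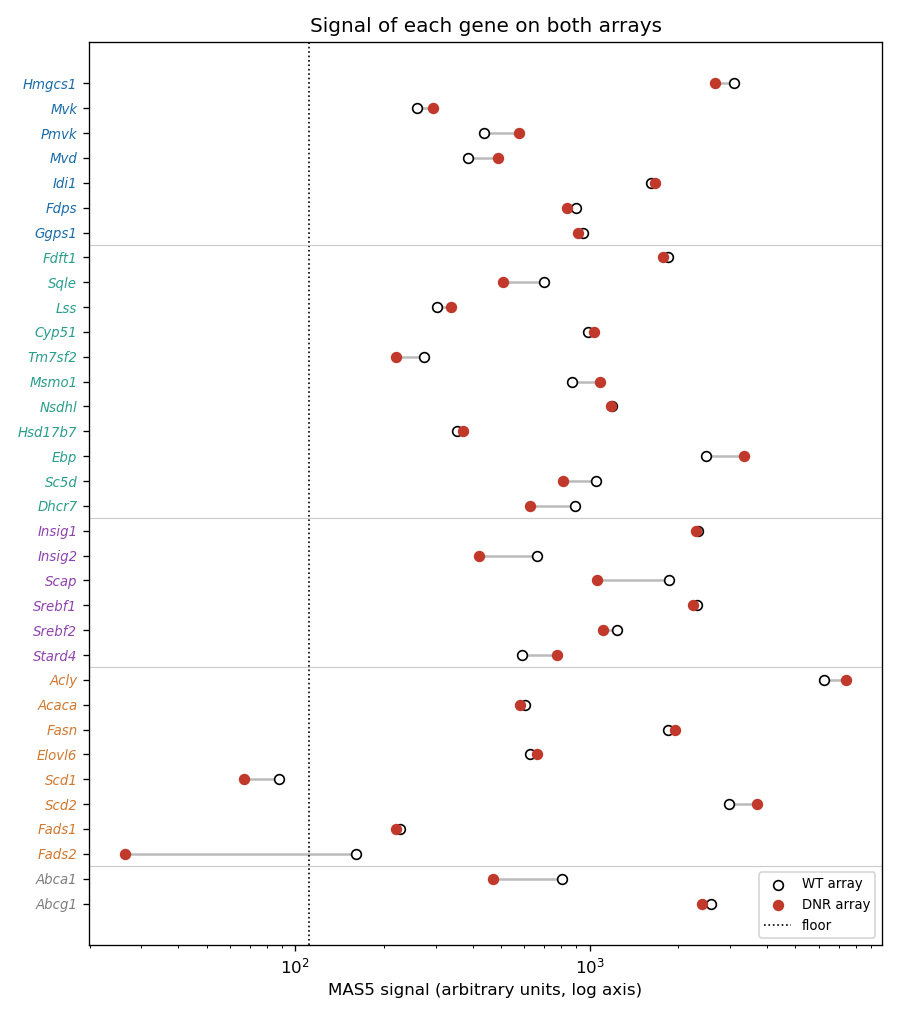
Signal of each of the 34 genes on the WT array (open circles) and the DNR array (red circles), in arbitrary units on a log axis, by role (colours of the names, split by grey lines). The dotted line is the floor of 110.9; most pairs of circles nearly touch, Scap, Insig2, Abca1 and Fads2 are farther apart, and Scd1 lies below the floor on both arrays.

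The mevalonate pathway had similar signals in both samples. Its 7 measured genes had a median log2 ratio of 0.04, with 4 higher and 3 lower on the DNR array. Hmgcs1, the synthase that makes HMG-CoA, had a DNR signal of 2673 and a WT signal of 3096, a log2 ratio of -0.21. All 5 of its probe sets were lower on the DNR array, with log2 ratios from -0.89 to -0.14. The probe set at -0.89 (1512 against 2810) is specific to its transcript by its suffix, while the representing probe set can bind several transcripts. Mvk, mevalonate kinase, had 293 against 258, but its second probe set passed the floor only on the WT array and was at least 1.84-fold lower. Pmvk, the next kinase of the pathway, had 573 against 438, a log2 ratio of 0.39. Mvd, the decarboxylase that yields isopentenyl diphosphate, had 488 against 385, and its second probe set 404 against 271, so both were higher on the DNR array. The isomerase gene Idi1 was nearly level at 1660 against 1611 (written DNR against WT from here on).

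The branch enzymes were near level by the probe sets that represent them. Fdps, which makes farnesyl diphosphate, had 837 against 901. Ggps1, which makes the geranylgeranyl diphosphate used to anchor small GTPases in membranes, had 913 against 951. The 4 probe sets of Ggps1 ran from -0.46 to 0.55, so its direction differs between them.

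The steps from squalene synthesis to cholesterol went both ways. Of 11 measured genes 5 were higher and 6 lower, with a median of -0.01. Fdft1, squalene synthase, the enzyme that commits farnesyl diphosphate to sterols, had 1777 against 1850, and its second probe set was lower at -0.34. Sqle, squalene epoxidase, a rate-limiting step of the branch, had 510 against 698, 1.37-fold lower on its only probe set. Lss, which closes the ring to lanosterol, had 337 against 304, a log2 ratio of 0.15. Its second probe set, specific to its transcript by its suffix, had 164 against 115, a log2 ratio of 0.51. The Sqle log2 ratio of -0.45 exceeds the probe set SD of 0.36 in size, and for Lss this depends on the probe set.

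The enzymes that turn lanosterol into cholesterol had ratios of both signs. Those named in this paragraph were within the probe set SD of 0.36 by the probe sets that represent them. Cyp51, the lanosterol demethylase, had 1036 against 986, with a second probe set at 0.11. Tm7sf2, a sterol reductase, had 220 against 274, and Msmo1, the methylsterol monooxygenase, 1084 against 868, in opposite directions. Nsdhl, a sterol dehydrogenase, was level at 1179 against 1186. Hsd17b7, a ketosteroid reductase of the same demethylation steps, had 371 against 355, while another of its probe sets had 142 against 206 and the next one, which passed the floor only on the DNR array, was at least 2.16-fold higher. That was the only probe set among the 67 measured ones of the group at least 2-fold higher, where 3.93% of all measured probe sets were.

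The last steps held both the highest ratio of the group and some of the lower ones. Ebp, the sterol isomerase, had 3352 against 2487, a log2 ratio of 0.43 on its only probe set. Sc5d, the desaturase after it, had 814 against 1053, and its other probe sets, each above the floor on 1 array, disagreed in direction (0.64 and -0.25). Dhcr7, the reductase that completes cholesterol, had 626 against 892, 1.43-fold lower on its only probe set. Neighbouring enzymes thus had ratios of opposite sign in some pairs (Ebp and Sc5d) and of the same sign in others (Sc5d and Dhcr7).

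**Figure D2:**
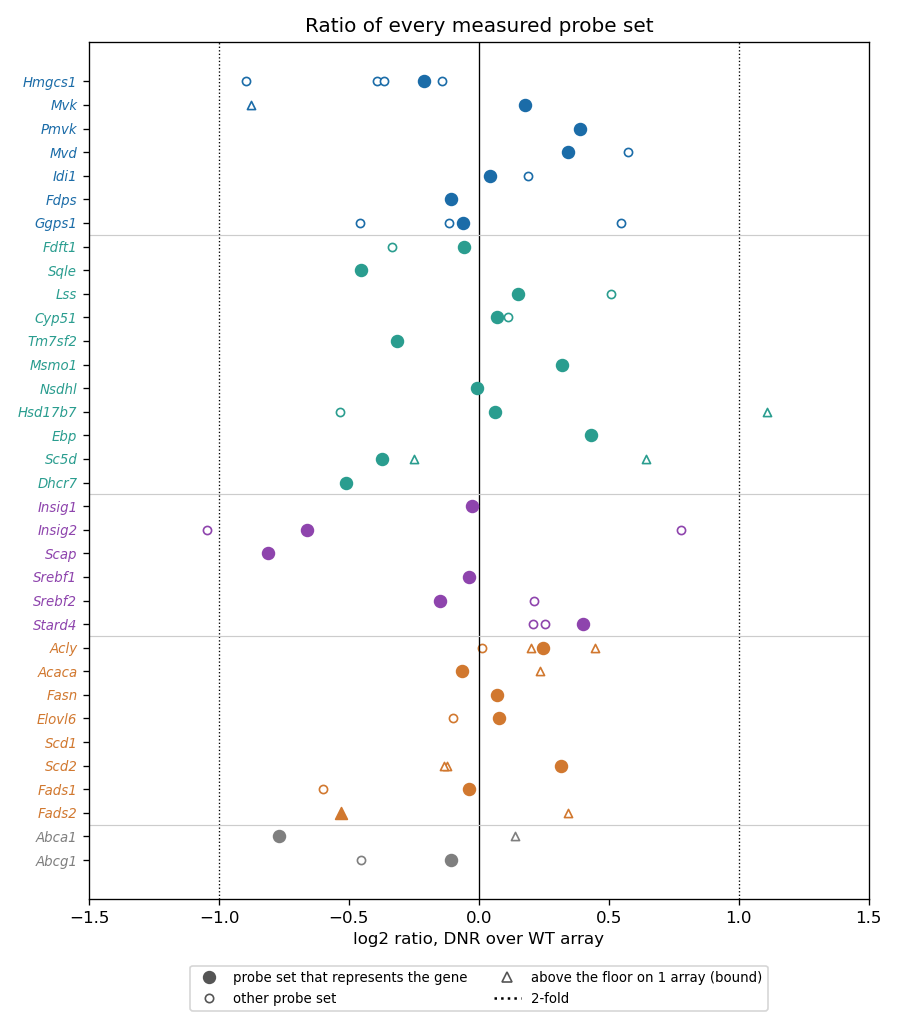
Log2 ratio of DNR over WT for each of the 67 probe sets above the floor on at least 1 array, by gene; filled symbols represent the gene, triangles are bounds from probe sets above the floor on 1 array, and dotted lines mark 2-fold. No filled symbol passes a dotted line, and the probe sets of Insig2 spread from -1.04 to 0.78.

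Among the genes of sterol sensing, the transcription factors were level and the chaperone was lower. Of 6 measured genes 1 was higher and 5 lower, with a median of -0.09. Srebf1, whose products drive fatty acid and sterol genes, had 2244 against 2305. Srebf2, the main activator of cholesterol synthesis, had 1111 against 1234, with a second probe set at 0.21. Insig1, itself a target of SREBP and a common readout of its activity, had 2287 against 2330, a log2 ratio of -0.03.

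Scap, the escort of the SREBPs, had the largest difference among the 32 genes that passed the floor on each array: 1059 against 1861, 1.76-fold lower on the DNR array. Its other probe set was below the floor on both arrays (19.0 against 87.9), so a second reading is lacking. Insig2, the INSIG form that does not depend on SREBP, had 420 against 664, 1.58-fold lower. A second Insig2 probe set had 236 against 488, 2.06-fold lower, and was the only measured probe set of the group at least 2-fold lower, where 3.30% of all were. The remaining one had 398 against 232, 1.71-fold higher, so the direction of Insig2 depends on the probe set. Stard4, a carrier of cholesterol between membranes and a target of SREBP2, was the only gene higher in this set, with 776 against 589, and all 3 of its probe sets were higher (0.21 to 0.40).

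Fatty acid synthesis genes were also near equal. The 7 measured genes had a median of 0.07, with 4 higher and 3 lower. Acly, which makes cytosolic acetyl-CoA from citrate, had 7420 against 6246, although a second bright probe set was level at 6435 against 6383. Acaca, acetyl-CoA carboxylase, the committed step, had 578 against 605. Its second probe set passed the floor only on the DNR array (130 against 45.1), in the opposite direction. Fasn, fatty acid synthase, had 1942 against 1851, a log2 ratio of 0.07 on its only probe set. Elovl6, which lengthens palmitate to stearate, had 662 against 627, with a second probe set of opposite sign (-0.10).

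The desaturases differed in whether they were measured. Scd2, the stearoyl-CoA desaturase form found in brain and many other tissues, had 3712 against 2983, a log2 ratio of 0.32, while its other probe sets passed the floor only on the WT array. Scd1, the form best known from liver and fat, was below the floor on both arrays with each of its 2 probe sets (66.8 against 87.9, and 54.5 against 43.1) and has no ratio. Fads1, the delta-5 desaturase, had 220 against 226, but its second probe set had 139 against 211, a log2 ratio of -0.60. Fads2, which starts the synthesis of polyunsaturated fatty acids, passed the floor only on the WT array (26.4 against 160), at least 1.45-fold lower, and a second probe set only on the DNR array (141 against 6.16). These Fads2 probe sets point in opposite directions at signals near the floor.

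Of the sterol exporters, Abca1 had a log2 ratio of -0.77. Abcg1 had one of -0.11 by the probe set that represents it, within the probe set SD of 0.36. Abca1, which loads cholesterol onto apolipoproteins, had 471 against 803, 1.71-fold lower, and a second probe set passed the floor only on the DNR array (122 against 36.7), in the opposite direction. Abcg1, which exports sterol to lipoproteins and is known to restrain T cell proliferation, had 2403 against 2592. Its second probe set had 617 against 845, a log2 ratio of -0.45, so whether Abcg1 exceeds the SD depends on the probe set. Macrophages are known to express Abca1, and macrophage and monocyte markers differed in the same direction: the 10 measured of 12 were all lower. At least 2-fold lower were 4 of them, where 2.93% of all measured genes were, and their list had summed signals of 4349 against 6437. The size of the difference varied: C1qa, with the lowest ratio, had 330 against 788, and C1qb of the same complex was level at 641 against 652. Csf1r, the marker with the highest signals, had 1449 against 1799, and Cd14 was below the floor on both arrays. The labels name a flow sort on CD4 and Foxp3, and the part of these markers in the Abca1 value was not tested. In such bulk RNA, fewer cells of a type and less RNA per cell cannot be told apart.

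Related lipid genes outside the group were near equal too, as lists. Of 12 measured genes of other sterol synthesis, uptake and processing steps 1 was higher and 11 lower, none by 2-fold, with a median of -0.11. Lbr, a nuclear envelope protein with sterol reductase activity, had 11117 against 12042, and Npc2, which moves cholesterol out of lysosomes, 18496 against 19517. The list of LXR receptors and targets had a median of -0.13 over 7 measured genes, with 5 lower. Of these, Mylip, an LXR-induced ubiquitin ligase, had 1108 against 1780 and Abca7, a lipid transporter, 1445 against 1491.

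Other fatty acid elongation and supply genes had a median of -0.11 over 15, with 6 higher and 9 lower. Elovl5, an elongase of polyunsaturated fatty acids, had 6874 against 8842 and Hacd3, a dehydratase of the elongation cycle, 7805 against 6218. Fatty acid oxidation genes had a median of 0.02 over 17, with 9 higher and 8 lower. Hadh, a dehydrogenase of the oxidation cycle, had 8438 against 8344, and Hadhb, the thiolase subunit of the trifunctional protein, 5886 against 4727. Phospholipid and triglyceride genes had a median of -0.05 over 18, and Cept1, which makes phosphatidylcholine and phosphatidylethanolamine, had 3651 against 3392. Cds2, a CDP-diacylglycerol synthase, had 2609 against 2694.

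Genes that use isoprenoids had a median of -0.10 over 13. Fntb, the beta subunit of protein farnesyltransferase, was the only gene of these 6 lists at least 2-fold different: it passed the floor only on the WT array (16.1 against 282), at least 2.55-fold lower, on its only probe set. The alpha subunit gene Fnta had 5211 against 4923.

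Cell cycle genes differed far more between the same arrays. Of 15 measured genes of that list 14 had more signal in DNR Tregs, with a median of 1.29. By 2-fold or more 12 were higher, where 4.0% of all measured genes were. The proliferation genes Aurkb (693 against 142), Birc5 (2550 against 728), Cdc20 (3309 against 950) and Kif11 (518 against 168) had the largest ratios. At 1.5-fold, 13 of the 15 were higher, against 0 of the 33 lipid synthesis genes and 12.8% of all measured genes. Whether the difference between these lists exceeds that between mice was not tested.

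**Figure D3:**
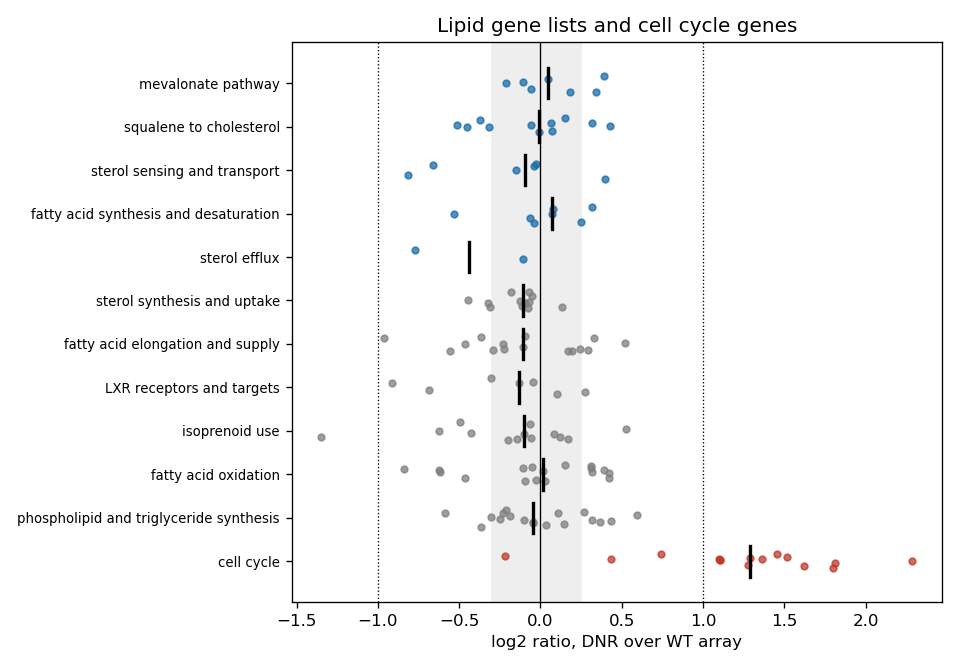
Log2 ratio of DNR over WT for the measured genes of each list (points) with the list median (black bar): blue, the cholesterol and fatty acid synthesis genes by role; grey, other lipid lists; red, cell cycle genes. The grey band is the interquartile range of the 9281 genes that passed the floor on each array, -0.30 to 0.25; the blue and grey medians lie inside it except that of the 2 sterol exporters (-0.44), and the cell cycle median is at 1.29.

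The ratios showed no common direction by promoter letters. Of the 26 measured genes with a window, the 20 with NF-Y letters had a median log2 ratio of 0.02, 10 higher and 10 lower. The 6 without them (Abca1, Acaca, Acly, Elovl6, Fads2 and Scap) had a median of -0.30 with Fads2 at its bound, ranging from -0.81 to 0.25. Hmgcs1, with the sterol element shown above, was at -0.21. These genes were grouped after their values had been seen, so the medians are given as a description.

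The samples held the Treg genes that their label names: Foxp3 had 4550 against 3754, and of 10 Treg markers all were above the floor on both arrays. Of the 10, 6 were higher on the DNR array and 4 lower. Izumo1r, a folate receptor family gene known from Tregs, had 1734 against 3515, 2.03-fold lower, and was the only one at least 2-fold different. Cd4, a marker of the sort, had 415 against 595, 1.43-fold lower. Erythroid markers were at background, with 1 of 7 above the floor, Klf1 at 116 on the DNR array. Of 9 B cell markers 5 passed the floor, with summed signals of 1829 against 1290, while Cd79a, Pax5, Cr2 and Ebf1 were below it on both arrays. Of 9 neutrophil markers 4 passed it, with summed signals of 1472 against 704, while S100a9, Camp, Ltf, Mpo and Cxcr2 did not. At least 2-fold higher on the DNR array were 1 B cell marker and 3 neutrophil markers, where 4.0% of all measured genes were. Among markers of platelets 3 of 6 passed it, of CD8 T and NK cells 5 of 6, and of dendritic cells 2 of 7. The ratio of 3′ to 5′ probe sets was 6.31 against 4.98 for beta-actin and 2.28 against 2.07 for Gapdh. The part of these differences in the values above was not tested.

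The small ratios depend on how the arrays are scaled. Under the 7 other settings without median scaling, 24 of the 33 genes kept their sign wherever they had a value, 14 of them lower on the DNR array and 10 higher. Median scaling, which divides each array by its median, adds -0.28 to the log2 ratio of every probe set that clears the floor in each sample, so it can turn a higher gene to lower but not the reverse. It moved the median of all measured genes to -0.25 and that of the 33 to -0.32. Across the settings the medians of sterol sensing and of the exporters were negative throughout, while those of the mevalonate, squalene and fatty acid genes changed sign. With median scaling Scap was at -1.10 and Abca1 at -1.06, past 2-fold. Abca1 was at -0.32 when the median over its probe sets was used.

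**Figure D4:**
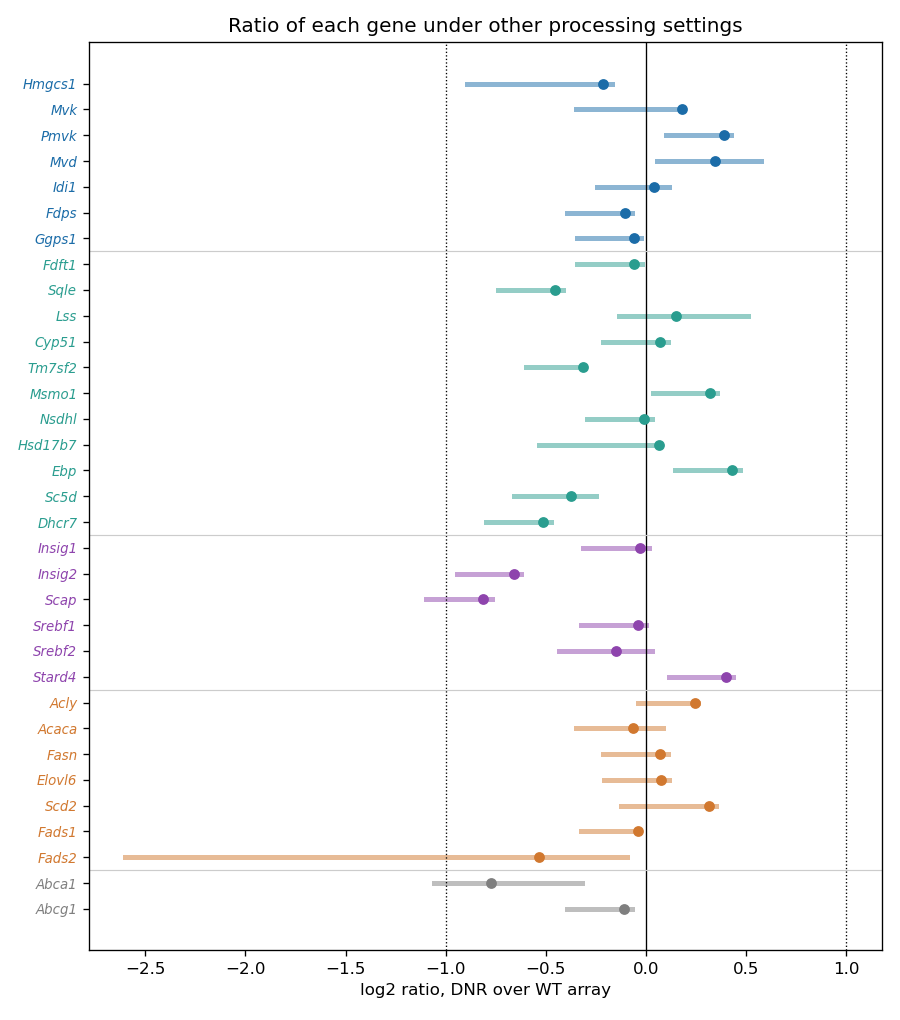
Log2 ratio of DNR over WT of the 33 measured genes in the setting used above (points) and its range over 8 other settings of floor, probe set choice and scaling (bars); dotted lines mark 2-fold. Only the bars of Scap, Abca1 and Fads2 pass a dotted line, and that of Fads2, near the floor, reaches -2.60 with no floor.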

How the data were processed

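Total RNA of sorted Tregs was labelled with biotin and hybridised to Affymetrix mouse arrays, 1 per genotype. The values deposited by the authors are signal intensities on a linear scale, 1 per probe set, and the authors used MAS5 to make them, according to the submitters' notes on processing. The scaling is not stated there; without the highest and lowest 2% of values both arrays had a mean of 499.8. Of 45101 probe sets, 64 controls were set aside. The platform annotation gave exactly 1 gene to 34945 of the 45037 others and several to 932, and did not list 9160.

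Values below the floor (the 50th percentile of the array with the higher median) were raised to it. With 1 array per group no test was made and no replicate could be left out; 2-fold described size. A gene above the floor on 1 array has a bound, written "at least". Medians include bounds. Precision is limited by the number of arrays. The procedure was tested on simulated data in which bright genes were given changes larger than 2-fold. That test says nothing of ratios under 2-fold or near the floor.

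The genes, lists and settings were chosen with earlier results of these data known. Values were given for each measured gene of the group, and for up to 4 genes of another lipid list or the cell cycle list at least 2-fold different, or else that list's 2 genes with the highest mean signals. Marker lists were given as counts, with summed signals for macrophage and monocyte, B cell and neutrophil markers alone. Defining markers at or near the floor were named for some of these lists only. Fnta, C1qa, C1qb, Csf1r, Foxp3, Izumo1r and Cd4 were named after their values were seen. Alternatives were a floor at the 40th or 60th percentile or none, the median over a gene's probe sets, leaving out probe sets that can bind several transcripts (by suffix), median scaling, quantile normalisation, a lowess correction (fraction 0.3), thresholds of 1.5-fold and 3-fold, and genes above the floor on both arrays only. Python 3.11.15, pandas 2.3.3 and statsmodels 0.14.6 were used. Promoter sequences are from RefSeq (GRCm38.p6).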

Additional observations from a re-analysis of the deposited data

How the results depend on the processing

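The count of genes at least 2-fold higher was 0 under all 10 alternatives run for it. The count at least 2-fold lower was 0 in the setting used. It was 1 after the floor was set at the 40th percentile and 1 with no floor (Fads2, at -1.10 and -2.60). With median scaling, which moved the median of all measured genes to -0.25, it was 2 (Scap and Abca1). The shares of all genes under these settings are not given here, so these counts have no background beside them. At a threshold of 1.5-fold the count was 3, where 9.85% of all measured genes were. The group median ranged from -0.32 (median scaling) to 0.0025 (lowess correction). When ambiguous probe sets (able to bind several transcripts) were left out, the median from squalene to cholesterol was -0.33, Hmgcs1 was at -0.89 and Hsd17b7 at -0.54. With the median over probe sets Mvk was at -0.35, Scd2 at -0.12 and Fads2 at -0.09. Of 260 values of single genes under other settings, 250 moved by less than the probe set SD of 0.36 and stayed under 2-fold. Many of these could not move further, so the count is no measure of robustness. A change of floor leaves genes that stay above it on both arrays as they were. The shift of -0.28 by median scaling is smaller than 0.36. The cause of these shifts was not tested.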
